A study of Mus musculus with 2 samples.

Results

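The genes described here are 6 chemokine genes, Cxcl1, Cxcl2, Cxcl3, Cxcl5, Ppbp and Pf4, and the receptor gene Cxcr2, which make up 7 of the 32285 genes measured. They were taken by name for their part in calling neutrophils. Their levels were read from 2 single-cell RNA libraries of Lewis lung carcinoma (LLC, a mouse lung cancer line), with 1 library per condition. The sGC Ctr library came from Gucy1b1 flox/flox mice without Cre, and the sGC ∆PC library from mice labelled Cspg4-CreER T2::Gucyc1b1 flox/flox, in which Cre recombinase is placed under Cspg4, a gene of pericytes and of some other cells. Gucy1b1 codes for the β1 subunit of soluble guanylate cyclase (sGC), the receptor of nitric oxide. All mice were C57BL/6, both groups carried the floxed alleles, and both had been given tamoxifen in 5 doses at 4 weeks of age. LLC cells were placed under the skin at 8 weeks of age and the tumors were taken 2 weeks later. The cells of 3 tumors were pooled for each library, so the condition and the library cannot be told apart. A difference between the libraries below is a difference between 2 pools of cells with no replicate check, and no test was made.

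Neutrophils leave the blood and move up gradients of CXC chemokines. Cxcl1, Cxcl2, Cxcl3 and Cxcl5 encode ligands of Cxcr2 that carry a glutamate-leucine-arginine motif ahead of the CXC cysteines. Ppbp encodes a precursor that platelets store and that proteases trim into another Cxcr2 ligand. Pf4, also called Cxcl4, is a platelet alpha granule chemokine without that motif and is not a classical Cxcr2 ligand. Cxcr2 is a G protein-coupled receptor of neutrophils that is taken into the cell after it binds ligand. Transcription of Cxcl1, Cxcl2 and Cxcl3 is induced quickly by interleukin 1, tumor necrosis factor and Toll-like receptor signaling through NF-kappaB, and macrophages, fibroblasts and tumor cells can all make them.

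The 6 ligand genes lie on chromosome 5 (GRCm38.p6) within chr5:90759298-90905938, a stretch of 146641 bases that holds 7 listed genes. Cxcr2 lies on chromosome 1, at chr1:74153994-74161246. The 120 bases ahead of the gene start are shown for 5 ligands, since those of Cxcl1, Cxcl2 and Cxcl3 share a run of letters of the NF-kappaB kind that those of Ppbp and Pf4 lack. Sequences are from RefSeq, on the plus strand and written 5′ to 3′. Capitals mark GGGAATTTCCC, the longest run that the windows of Cxcl1, Cxcl2 and Cxcl3 have in common, which starts with a kappaB site sequence. They also mark the letters TATAAA of a TATA box. Each was searched on both strands, and the marked runs do not overlap.
Cxcl1, chr5:90891125-90891244: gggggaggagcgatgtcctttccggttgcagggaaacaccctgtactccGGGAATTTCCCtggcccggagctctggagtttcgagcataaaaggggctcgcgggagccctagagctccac
Cxcl2, chr5:90903779-90903898: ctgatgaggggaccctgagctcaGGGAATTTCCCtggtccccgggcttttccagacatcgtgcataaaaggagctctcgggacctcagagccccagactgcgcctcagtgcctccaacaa
Cxcl3, chr5:90785981-90786100: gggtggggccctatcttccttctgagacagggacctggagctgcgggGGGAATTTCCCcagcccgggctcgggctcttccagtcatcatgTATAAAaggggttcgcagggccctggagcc
Ppbp, chr5:90768398-90768517: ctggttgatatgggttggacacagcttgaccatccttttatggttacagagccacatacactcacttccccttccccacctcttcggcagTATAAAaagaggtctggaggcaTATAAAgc
Pf4, chr5:90772315-90772434: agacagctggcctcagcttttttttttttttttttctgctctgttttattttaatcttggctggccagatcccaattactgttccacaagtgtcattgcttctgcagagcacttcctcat
The shared run begins 71 bases before the start of Cxcl1, 97 before that of Cxcl2 and 73 before that of Cxcl3. It was chosen from these 3 windows, and it is in 14 of 32851 mouse promoters of 300 bases (0.0426%). TATAAA is in 13.6% of these promoters. The Cxcr2 window holds neither. Cxcl5, at chr5:90759298-90761625, had no promoter entry in the table used. These matches describe letters and not binding.

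The libraries held 15007 and 25631 barcodes, of which 12220 and 22498 passed the quality filters, and throughout the sGC Ctr value is given before the sGC ∆PC value. Depth was unequal, with a median of 35776.5 unique molecular identifiers (UMIs) per kept cell against 8685. Cells were put into classes by the summed UMIs of fixed marker genes, and cells over the gates of 2 or more unrelated classes (656 and 3372) were kept apart. Macrophage, monocyte and dendritic gates counted as related, as did fibroblast with pericyte gates and T cell with natural killer gates. A cell over related gates only went to the class whose gate it exceeded by the largest factor. The monocyte-like class can thus hold cells over the macrophage gate. A class is therefore a range of marker levels and is named by likeness. The neutrophil-bearing class, called granulocyte-like, held 203 and 251 cells, of which 14 and 16 were within 1.5 times their gate. As many as 285 macrophage-like, 163 monocyte-like, 613 cancer-like, 31 fibroblast-like and 20 EC-like cells of a library were that near their gates. Macrophage-like cells numbered 2153 and 2702, monocyte-like cells 612 and 647, cancer-like cells 7671 and 13803, fibroblast-like cells 124 and 205, and endothelial cell (EC)-like cells 59 and 86. The top 10 genes by fold of each class included its own markers and no marker of another class. The gates use these same markers, so this was largely set by them and is no separate check of the classes. Levels are given as CPM, the UMIs of a gene out of 1000000 UMIs of its class, with 95% Poisson intervals, and these and all other intervals cover counting error only. Gucy1b1 was counted at 127 CPM (96.1 to 164) in 37 pericyte-like cells and at 39.1 CPM (20.2 to 68.2) in 36, but 3′ tags may lie outside the deleted exons. Since UMIs tag 3′ ends, levels are compared between cells and libraries and not between genes.

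**Figure D1:**
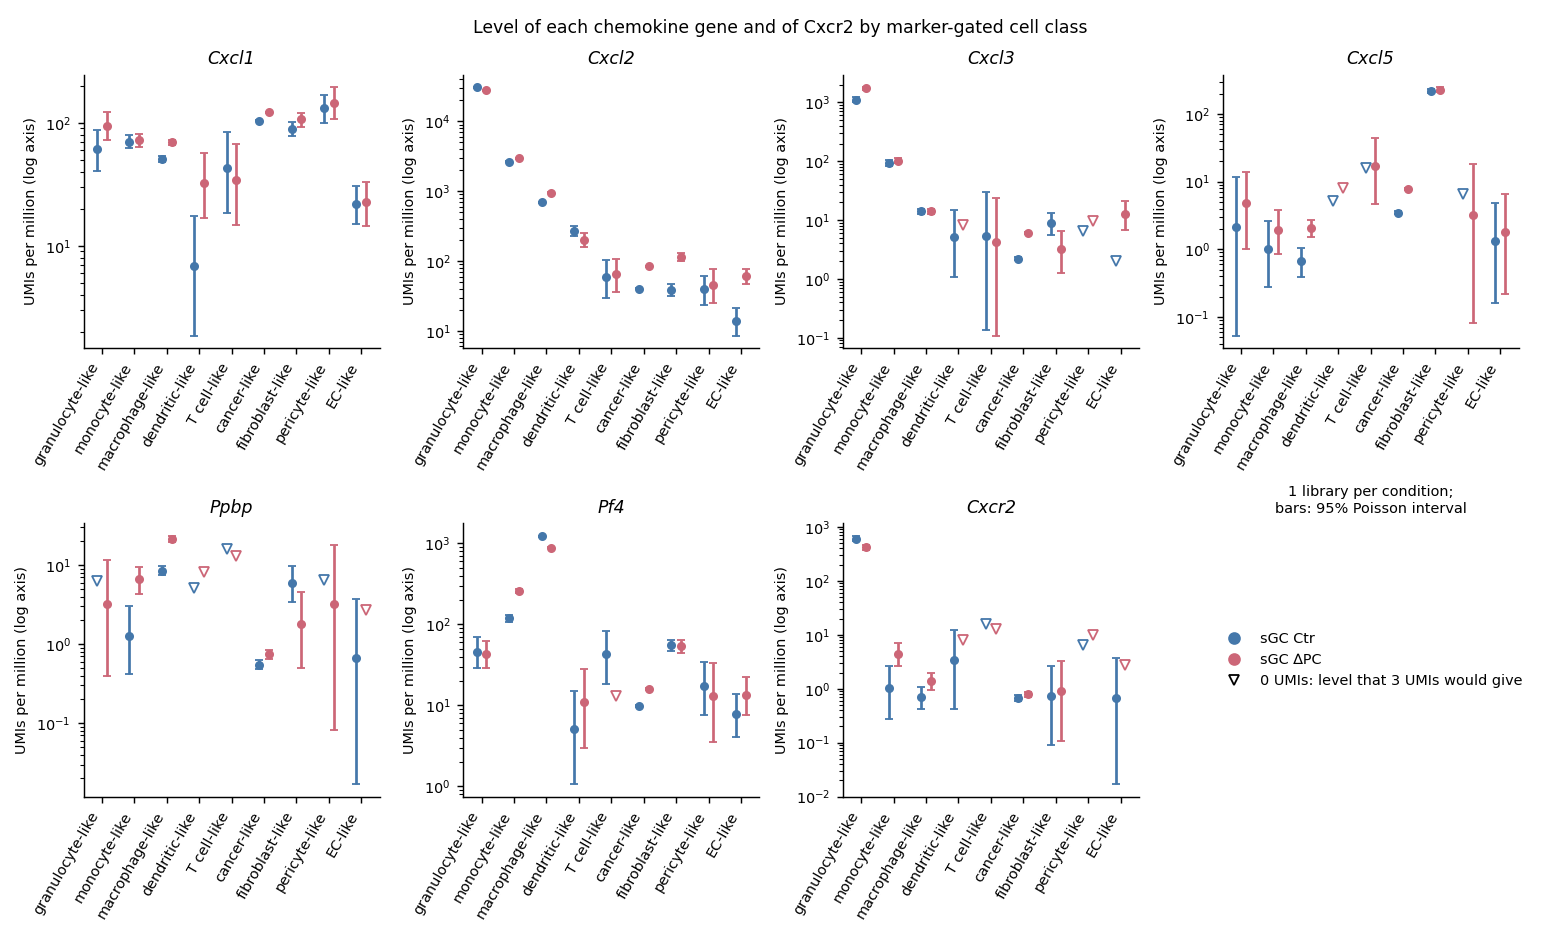
Level of each gene (UMIs in CPM, log axis) in 9 cell classes, with sGC Ctr in blue and sGC ∆PC in red, bars for 95% Poisson intervals and open triangles where 0 UMIs were counted, drawn at the level of 3 UMIs. Cxcl2, Cxcl3 and Cxcr2 peak in granulocyte-like cells, Pf4 in macrophage-like cells, Cxcl5 in fibroblast-like cells, and Cxcl1 is spread over cancer-like, pericyte-like, fibroblast-like and myeloid cells.

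Cxcl2, a ligand of Cxcr2 made by activated myeloid cells, was highest in the granulocyte-like cells themselves. Its level there was 30607 CPM (30111 to 31108; 14531 UMIs) in sGC Ctr and 28023 CPM (27608 to 28442; 17396 UMIs) in sGC ∆PC. Monocyte-like cells came next at 2647.3 and 2952.8 CPM, and macrophage-like cells followed at 698 and 950 CPM. The order of these 3 classes was the same in both libraries, with intervals that did not overlap. Dendritic-like cells held 273 and 201 CPM, from 160 and 74 UMIs. Lower levels were found in fibroblast-like (39.1 and 114 CPM), cancer-like (40.1 and 84.1 CPM), pericyte-like (39.3 and 45.6 CPM) and EC-like cells (13.9 and 60.4 CPM). T cell-like cells, a class not known for making Cxcl2, held 58.7 (29.3 to 105) and 64.4 (36 to 106) CPM.

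Cxcl2 was also the member found in the largest share of granulocyte-like cells. A UMI was seen in 93.1% (exact binomial interval 88.7 to 96.2) and 97.2% (94.3 to 98.9) of them, at median depths of 2247 and 2446 UMIs. With every cell thinned to 2000 UMIs, which left out 60 and 68 of these cells, the shares were 94.4% and 98.4%. At the same depth the shares were 43.8% and 55.2% in monocyte-like and 30.7% and 44.2% in macrophage-like cells. In T cell-like cells they were 18.2% (8.19 to 32.7) and 18.6% (8.39 to 33.4), at unthinned median depths of 2989 and 3265 UMIs. The thinned shares in cancer-like cells, 5.15% and 14.2%, were not above those in T cell-like cells, which rest on 8 cells in each library. Whether shares of that size are background was not tested. The top 5% of cancer-like cells held 70% and 55.2% of the class's Cxcl2 UMIs.

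Although granulocyte-like cells had the highest level, they were few and held 18% and 15.8% of all Cxcl2 UMIs in the kept cells. Macrophage-like cells held 23.3% and 20.3%, cancer-like cells 20.7% and 26.8%, and monocyte-like cells 12.8% and 11%. Droplets over 2 or more gates held 13.4% and 16.9%. Within a class the UMIs were uneven. The top 5% of macrophage-like cells held 50.2% and 51.9% of the class's Cxcl2 UMIs, against 20% and 18.5% in granulocyte-like cells.

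Cxcl3, a close relative of Cxcl2 with the same receptor, followed Cxcl2 at a narrower range of cells. Granulocyte-like cells held 1112.1 CPM (1019.3 to 1211.2) and 1722 CPM (1620.3 to 1828.4), monocyte-like cells 93 and 102 CPM, and macrophage-like cells 14.1 and 14 CPM. Fibroblast-like cells held 8.85 and 3.16 CPM, cancer-like cells 2.2 and 6.11 CPM, and T cell-like cells 1 UMI in each library. At 2000 UMIs a Cxcl3 UMI was seen in 37.8% (29.8 to 46.2) and 48.6% (41.2 to 56.1) of granulocyte-like cells, with 32% and 47% before thinning. In monocyte-like cells the thinned shares were 3.95% and 6.14%, beside 1 T cell-like cell of 44 (2.27%, 0.0575 to 12) and 1 of 43 (2.33%, 0.0589 to 12.3). The thinned shares in macrophage-like cells, 1.08% and 1.64%, and in cancer-like cells, 0.469% and 1.53%, were not above these, which rest on 1 cell each.

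Cxcl1, the ligand that many stromal and tumor cells release, had most of its UMIs in the cancer-like cells. These held 91.5% and 88.3% of all Cxcl1 UMIs, at 104 CPM (103 to 105; 43459 UMIs) and 122 CPM (121 to 123; 42732 UMIs). They also held most UMIs of all genes, 417554232 of 476464534 and 350481571 of 412064152. The Cxcl1 level over all kept cells was close to theirs, at 99.7 and 117 CPM. Pericyte-like cells had a like level, 131 CPM (100 to 169) and 146 CPM (107 to 196), from 60 and 45 UMIs, and the 37 pericyte-like cells of sGC Ctr held 22 of their UMIs in 1 cell. Fibroblast-like cells held 89.7 and 107 CPM, monocyte-like cells 70.5 and 72 CPM, macrophage-like cells 51.1 and 69.6 CPM, and EC-like cells 21.9 and 22.5 CPM. T cell-like cells held 42.7 CPM (18.4 to 84.2) and 34.3 CPM (14.8 to 67.6), 8 UMIs in each library. The macrophage-like level lay inside the T cell-like interval in sGC Ctr and just above it in sGC ∆PC, whereas the cancer-like level lay above it in both.

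The share of cancer-like cells with a Cxcl1 UMI turned over with depth. It was 71.2% and 56.4% over all UMIs, at median depths of 49982 and 12754 UMIs, but 14.9% (14.1 to 15.7) and 17.9% (17.2 to 18.5) at 2000 UMIs, without 215 and 1145 shallower cells. Thinned T cell-like cells showed 11.4% (3.79 to 24.6) and 4.65% (0.568 to 15.8), and EC-like cells 3.45% and 7.55%. Cxcl1 was uneven among cancer-like cells, whose top 5% held 40.8% and 48.2% of the UMIs, with up to 463 and 496 UMIs in 1 cell.

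Cxcl5, a ligand known from epithelial and stromal cells, was highest in the fibroblast-like cells. It reached 219 CPM (202 to 237; 593 UMIs) and 230 CPM (210 to 251; 509 UMIs) there, against 3.5 and 7.75 CPM in cancer-like and 0.667 and 2.05 CPM in macrophage-like cells. It was seen in 41 and 76 fibroblast-like cells, a share of 33.1% and 37.1%, or 20.7% (13.8 to 29) and 28.2% (21.5 to 35.8) at 2000 UMIs. Macrophage-like cells showed 0.0936% and 0.423% at that depth, and T cell-like cells 0 of 44 and 1 of 43. Being far more numerous, the cancer-like cells held 63.1% and 65.6% of all Cxcl5 UMIs and the fibroblast-like cells 25.6% and 12.3%. In cancer-like cells Cxcl5 was seen in 629 and 1198 cells, 8.2% and 8.68% of them, and the top 5% held 83.2% and 81.3% of the UMIs, up to 37 and 82 in 1 cell. Pericyte-like cells held 0 and 1 UMI.

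Pf4 was a macrophage gene in these tumors. Macrophage-like cells held 76.4% and 59.6% of its UMIs, at 1227.9 CPM (1214.7 to 1241.1; 33113 UMIs) and 884 CPM (872 to 896; 20702 UMIs). A Pf4 UMI was seen in 82.4% and 61.7% of them, or 59.6% (57.5 to 61.7) and 46.4% (44.3 to 48.6) at 2000 UMIs, beside 3 T cell-like cells of 44 and 0 of 43. Monocyte-like cells held 119 and 259 CPM, fibroblast-like cells 55.3 and 54.2 CPM, granulocyte-like cells 46.3 and 43.5 CPM, and cancer-like cells 9.76 and 16 CPM. In the fibroblast-like cells 1 cell alone held 129 of 150 UMIs in sGC Ctr, and 1 held 90 of 120 in sGC ∆PC.

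Platelets are the cells for which Pf4 and Ppbp are best known. The platelet gate alone was passed by no cell of sGC Ctr and 2 of sGC ∆PC, and cells over this and another gate are among the mixed droplets. Of 6 platelet markers, Tubb1, the platelet tubulin, had 0 UMIs in the kept cells of either library and Gp9, a subunit of the von Willebrand factor receptor, 6 and 0. Itga2b reached 841 and 630 UMIs over the library, of which 10 and 12 were in macrophage-like cells. Of Treml1 19 of 49 and 24 of 55 UMIs were in macrophage-like cells, of Clec1b 8 of 35 and 7 of 33, and of Gp1bb 3 of 86 and 1 of 72.

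Ppbp was rare, and among the named classes with over 50 cells in both libraries its level was highest in macrophage-like cells. Cells under every gate were higher, at 33.3 and 34 CPM. The gene gave 230 UMIs in 55 macrophage-like cells of sGC Ctr (8.53 CPM, 7.46 to 9.7) and 502 UMIs in 65 cells of sGC ∆PC (21.4 CPM, 19.6 to 23.4). These were 2.55% and 2.41% of the class, or 0.702% and 1.27% at 2000 UMIs, and T cell-like cells held 0 UMIs in both libraries, where 3 UMIs, the limit taken here for a count of 0, would be 16 and 12.9 CPM. A few cells carried the gene, since 1 cell held 34 UMIs in sGC Ctr and 1 held 172 in sGC ∆PC. Macrophage-like cells held 33.3% and 45.1% of all Ppbp UMIs, cancer-like cells 33.1% and 23.4%, and cells under every gate 29.1% and 19.6%. The cells with a Ppbp UMI held 0 and 3 UMIs of the 6 platelet markers. In them the summed level of tissue-resident-like macrophage genes was 4107.1 CPM in sGC Ctr and 3260.8 CPM in sGC ∆PC. It was 1808.5 and 1501.2 CPM in the other macrophage-like cells. Other summed genes were also higher in the cells with Ppbp. Lipid and phagocyte macrophage genes were 4252.9 and 3573.4 CPM against 2358.4 and 2748.9, and hypoxia genes 2698.4 and 3266.1 against 2099 and 2249.5. NF-kappaB genes and early targets were 3390.6 and 3529.3 against 2601.4 and 2851.8. MHC class II genes were lower, at 2132.9 and 3616.1 against 3384.5 and 5515.8. The median depth of the cells with Ppbp was 12925 and 10191 UMIs against 11475.5 and 6708.

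Cxcr2, the receptor, marked the granulocyte-like cells at 611 CPM (543 to 685; 290 UMIs) and 419 CPM (369 to 473; 260 UMIs). In every other named class with over 50 cells in both libraries it was under 5 CPM. Cancer-like cells held 0.666 and 0.787 CPM and macrophage-like cells 0.705 and 1.37 CPM. T cell-like cells had 0 UMIs, where 3 would be 16 and 12.9 CPM. A Cxcr2 UMI was seen in 58.1% (51 to 65) and 46.2% (39.9 to 52.6) of granulocyte-like cells, or 57.3% (48.8 to 65.6) and 43.7% (36.4 to 51.2) at 2000 UMIs. Only 31.1% and 30.1% of the Cxcr2 UMIs were in this class, with 30.4% and 24.9% in droplets over 2 or more gates and 29.9% and 31.9% in cancer-like cells, of which 2.65% and 1.74% had a UMI.

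**Figure D2:**
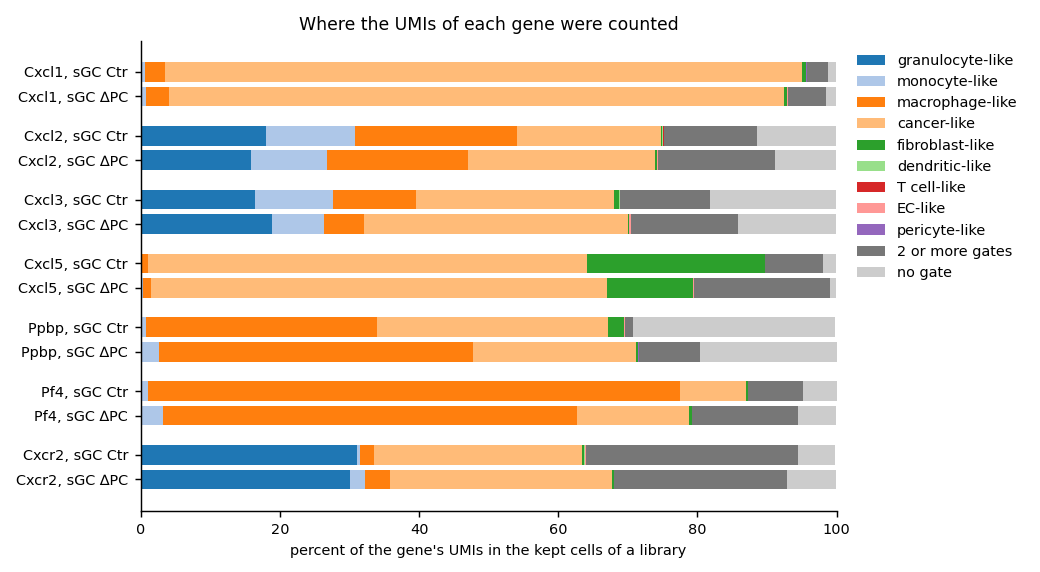
Percent of each gene's UMIs (x axis) counted in each class of kept cells, with 1 bar per gene and library. Cxcl1 is mostly in cancer-like cells (91.5% and 88.3%), which also hold most UMIs of all genes. Pf4 is mostly in macrophage-like cells (76.4% and 59.6%). Cxcl2 is divided among granulocyte-like, monocyte-like, macrophage-like and cancer-like cells, mixed droplets and cells under every gate.

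Between the libraries, Cxcl5 and Cxcl3 differed most over the whole pools, and no share of all genes was made for these pooled values. The intervals are narrow, since they cover only counting error in 476464534 and 412064152 UMIs. Over all kept cells the log2 ratio of CPM, sGC ∆PC over sGC Ctr, was 1.05 (exact interval 0.98 to 1.12) for Cxcl5, 1.02 (0.96 to 1.09) for Cxcl3, 0.90 (0.76 to 1.04) for Ppbp, 0.65 (0.64 to 0.66) for Cxcl2 and 0.24 (0.22 to 0.25) for Cxcl1. Pf4 was lower at -0.11 (-0.13 to -0.09), and for Cxcr2 the interval of the ratio, 0.10 (-0.03 to 0.24), included 0. The make-up of the pools enters these values, so the classes are given next, with the share of all genes that differed by at least 2-fold beside the count of members. Only genes that reached 50 UMIs over the pair of libraries were counted, and their median log2 ratio lay between -0.05 and 0.01 in the classes named.

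In granulocyte-like cells none of the 4 members with enough UMIs was past 2-fold, beside 1.2% of 2409 genes higher and 1.37% lower in sGC ∆PC. Cxcl3 was higher, by a log2 ratio of 0.63 (0.48 to 0.78), and the interval for Cxcl1, 0.64 (-0.03 to 1.33), included 0. Cxcr2 was lower, at -0.54 (-0.79 to -0.30), as was Cxcl2 by a little, at -0.13 (-0.16 to -0.10). The summed granulocyte markers were also lower, at 84589 CPM in sGC Ctr and 62767 CPM in sGC ∆PC, and their part in the ratios was not tested. Per 100 UMIs of those markers Cxcl2 stood at 36.2 (35.5 to 36.9) and 44.6 (43.9 to 45.5), Cxcl3 at 1.31 (1.2 to 1.43) and 2.74 (2.58 to 2.92), and Cxcr2 at 0.722 (0.641 to 0.811) and 0.667 (0.588 to 0.754). Among cells with little of any other class's markers, 30 and 29 in number, Cxcl2 turned higher, from 27245 to 36695 CPM (0.43). Cxcl3 was past 2-fold higher in those cells, at 829 and 3125.5 CPM (1.91, 1.46 to 2.40), from 50 and 181 UMIs. Here and below, such cells had at most 0.1 of the gate of each unrelated class. Markers of related classes were not limited. Macrophage-like, monocyte-like and dendritic-like cells count as related, as do fibroblast-like with pericyte-like and cancer-like with fibroblast-like cells.

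In macrophage-like cells 2 of 7 members, Cxcl5 and Ppbp, were past 2-fold higher in sGC ∆PC and none lower, beside 0.873% of 11797 genes higher and 0.348% lower. Cxcl1 at 0.45 (0.34 to 0.55) and Cxcl2 at 0.44 (0.42 to 0.47) were higher by less than 2-fold. Cxcl3 was at -0.01 (-0.23 to 0.20). Pf4, the member these cells express most widely, was lower at -0.47 (-0.50 to -0.45), and 4.11% of genes in the class had a lower ratio. The Ppbp value of 1.33 (1.10 to 1.56) rests on few cells and turned to -0.40 when classes came from Leiden clusters and to -2.04 in the cells with little of other classes' markers. The Cxcl5 value of 1.62 (0.81 to 2.49) rests on 18 and 48 UMIs and was under 2-fold, 0.24 (-0.28 to 0.76), when cells over several gates were put in their highest class, and the Cxcr2 value of 0.96 (0.09 to 1.86) on 19 and 32. Macrophage markers summed to 12393 CPM in sGC Ctr and 10190 CPM in sGC ∆PC, and Pf4 per 100 of their UMIs was 9.91 (9.8 to 10) and 8.68 (8.55 to 8.8). Granulocyte markers in the same cells summed to 71 and 112 CPM, and their part in the Cxcl2 difference was not tested.

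In monocyte-like cells Pf4 was the member of 4 past 2-fold, beside 0.742% of 8496 genes higher and 0.165% lower in sGC ∆PC. Its log2 ratio was 1.13 (0.97 to 1.29), opposite to that in macrophage-like cells. Macrophage markers in these cells were 1106.9 and 1159.6 CPM, so Pf4 per 100 of their UMIs was 10.7 (9.72 to 11.8) in sGC Ctr and 22.4 (20.9 to 23.9) in sGC ∆PC. The Pf4 UMIs were uneven, with 84.7% and 86.7% of them in the top 5% of cells. Other macrophage genes were higher in sGC ∆PC, by median log2 ratios against 0.01 for all genes. The median was 0.60 for tissue-resident-like genes (1 of 4 past 2-fold higher) and 0.38 for lipid and phagocyte genes (1 of 5). Cells near the monocyte gate were 16.5% and 25.2% of the class. The part of these in the Pf4 ratio was not tested. Cxcl2 differed by 0.16 (0.12 to 0.20), and the intervals of Cxcl1, 0.03 (-0.21 to 0.27), and Cxcl3, 0.14 (-0.07 to 0.34), included 0.

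In cancer-like cells Cxcl3 (1.48, 1.36 to 1.59), Cxcl5 (1.15, 1.06 to 1.24) and Cxcl2 (1.07, 1.04 to 1.09) were past 2-fold higher in sGC ∆PC, 3 of 7 members and none lower. Of 15360 genes in this class 4.54% were past 2-fold higher and 0.117% lower. Pf4 (0.71, 0.65 to 0.77) and Ppbp (0.44, 0.17 to 0.70) were also higher. Cxcl1, the member these cells chiefly carried, differed by 0.23 (0.21 to 0.25). Myeloid markers moved with these values. Summed macrophage markers were 93.6 CPM in sGC Ctr and 198 CPM in sGC ∆PC, and summed granulocyte markers 28.1 and 63.1 CPM, and their part in the member ratios was not tested. Per 100 macrophage marker UMIs, Cxcl2 in cancer-like cells stood at 42.9 (42.1 to 43.7) and 42.4 (41.8 to 43). That was above the 5.64 and 9.32 of the macrophage-like cells. It was below the 239 and 255 of the monocyte-like and the 5362 and 5101.5 of the granulocyte-like cells. Pf4 stood at 10.4 (10.1 to 10.8) and 8.06 (7.84 to 8.28), near the 9.91 and 8.68 of the macrophage-like cells. Per 100 granulocyte marker UMIs, Cxcl2 in cancer-like cells stood at 143 and 133. It was 36.2 and 44.6 in granulocyte-like and 1642.6 and 1656 in monocyte-like cells. At 2000 UMIs Cxcl2 in all cancer-like cells was under 2-fold higher, at 108 and 201 CPM. In cancer-like cells with little of other classes' markers, 6655 and 6704 in number, it was also under 2-fold, at 25.5 and 39.9 CPM. Pf4 in those cells was 5.16 and 5.87 CPM, against 9.76 and 16 CPM in all cancer-like cells. Cxcl5 there was 3.48 and 7.63 CPM, about what it was in all cancer-like cells, and Cxcl1 was 104 and 123 CPM. Fibroblast markers, those of the class with the most Cxcl5, were not limited in that choice of cells. They were 1313 and 1375 CPM in all cancer-like cells.

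**Figure D3:**
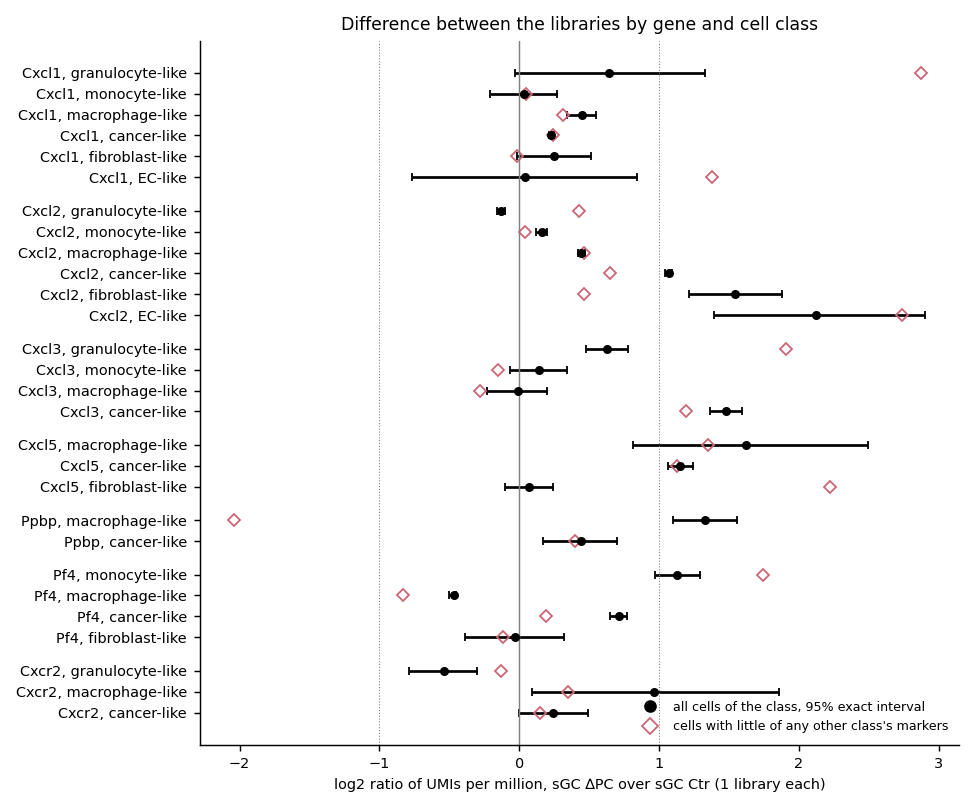
Log2 ratio of CPM, sGC ∆PC over sGC Ctr, for each gene and class with at least 50 UMIs. Black points are all cells, bars are 95% exact intervals, and dotted lines are at 2-fold. Open diamonds are cells with little of the markers of unrelated classes, where related classes such as cancer-like and fibroblast-like are not limited. Over all cells of a class, Cxcl2 lies near 0 in granulocyte-like cells (-0.13) and past 2-fold in cancer-like cells (1.07). Pf4 lies on opposite sides of 0 in macrophage-like (-0.47) and monocyte-like (1.13) cells.

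In the stroma, Cxcl2 was the member past 2-fold over all cells of the fibroblast-like and EC-like classes. Pericyte-like cells had a log2 ratio of 0.16 (-0.43 to 0.74) for Cxcl1. Their Cxcl2 was 39.3 and 45.6 CPM (0.21, -0.91 to 1.30), from 18 and 14 UMIs, short of the 50 needed to be counted. In fibroblast-like cells Cxcl2 was 39.1 CPM (32 to 47.3) in sGC Ctr and 114 CPM (100 to 129) in sGC ∆PC. This log2 ratio of 1.54 (1.21 to 1.88) made 1 of 4 members, beside 1.23% of 7950 genes higher and 1.02% lower. Of the 252 UMIs in sGC ∆PC, 110 were in 1 cell. In the 40 and 51 fibroblast-like cells with little of other classes' markers Cxcl2 was under 2-fold, at 28.3 and 38.9 CPM (0.46, -0.46 to 1.38). Cxcl5 differed by 0.07 (-0.10 to 0.24), and its direction changed with the gates (-0.31 at lower gates and 0.29 at higher ones). It was 0.42 with Leiden clusters, and past 2-fold in the cells with little of other classes' markers, at 51.4 and 239 CPM (2.22, 1.70 to 2.76), from 40 and 135 UMIs. In EC-like cells Cxcl2 was 13.9 CPM (8.61 to 21.3) and 60.4 CPM (46.8 to 76.7). The log2 ratio was 2.12 (1.39 to 2.90), which made 1 of 2 members, beside 0.863% of 6025 genes higher and 0.664% lower. Cxcl3 had 0 UMIs in these cells of sGC Ctr, where 3 would be 1.99 CPM, and 14 UMIs (12.6 CPM) in those of sGC ∆PC. In sGC ∆PC the highest EC-like cell for each gene held 8 of the 14 Cxcl3 UMIs and 24 of the 67 Cxcl2 UMIs. At 2000 UMIs the EC-like Cxcl2 levels were 43.1 and 56.6 CPM, a log2 ratio of 0.39 (-1.58 to 2.44). Granulocyte markers were 41.3 and 71.8 CPM in fibroblast-like cells and 14.6 and 43.3 CPM in EC-like cells, and their part in the Cxcl2 differences was not tested.

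**Figure D4:**
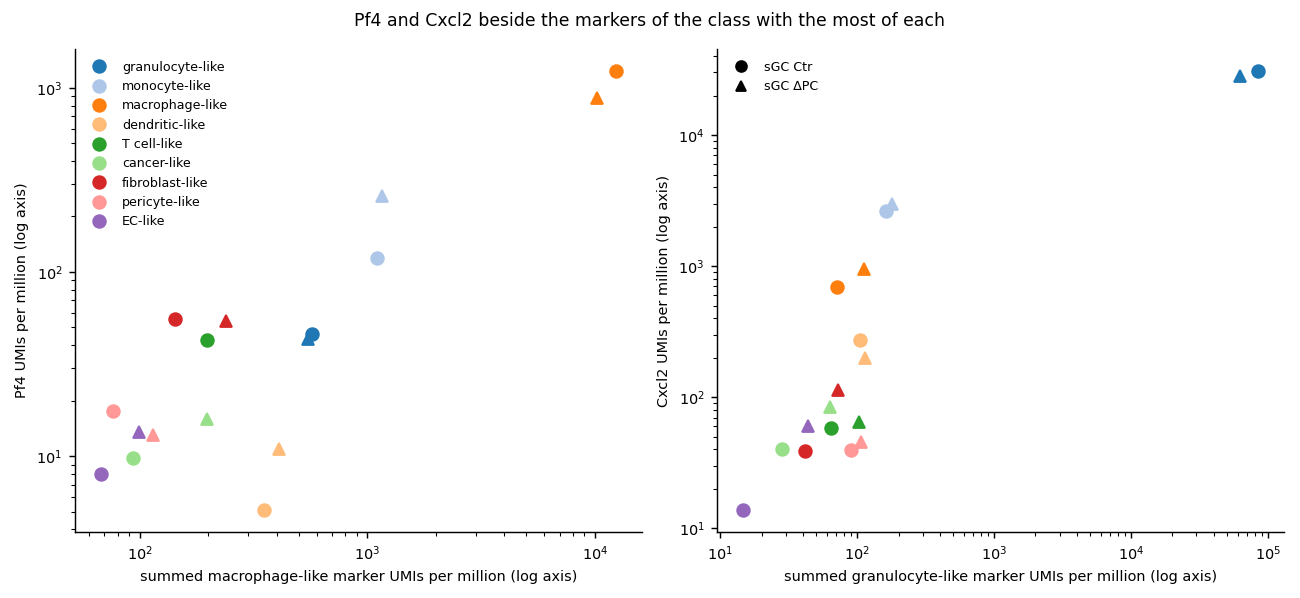
Pf4 against summed macrophage markers (left) and Cxcl2 against summed granulocyte markers (right), as CPM on log axes, with 1 point per class, circles for sGC Ctr and triangles for sGC ∆PC. Pf4 in cancer-like cells (10.4 and 8.06 per 100 marker UMIs) stands to the markers in a ratio near that of macrophage-like cells (9.91 and 8.68), and Cxcl2 in monocyte-like cells (1642.6 and 1656 per 100) lies far above the ratio in granulocyte-like cells (36.2 and 44.6).

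Cells that held one of these ligands often held another. All counts in this paragraph are at 2000 UMIs per cell, and they describe cells of 1 library that share depth and droplets. Granulocyte-like cells with a Cxcl3 UMI had a Cxcl2 level of 45815 and 38039 CPM, against 23309 and 22112 CPM in those without. Cells with a Cxcr2 UMI ran the other way, with Cxcl2 at 25122 and 27125 CPM against 40795 and 31981 CPM. Among macrophage-like cells with a Cxcl1 UMI, 72.2% (63.5 to 79.8) and 69% (62.6 to 74.9) held Cxcl2, against 28.1% (26.2 to 30.2) and 41.2% (38.9 to 43.4) of the others. Pf4 was found in 60% and 48.7% of macrophage-like cells with Cxcl2 and in 59.5% and 44.6% of those without, at levels of 1296 and 1103.6 CPM against 1077 and 705 CPM. Its level was 7366.7 and 9277.8 CPM in the 15 and 27 cells with a Ppbp UMI against 1100.4 and 773 CPM in the rest. In cancer-like cells with a Cxcl5 UMI the Cxcl1 level was 641 and 448 CPM, against 105 and 121 CPM in the others. Cancer-like cells with a Cxcl3 UMI, 35 and 194 in number, had Cxcl2 at 8428.6 and 3322.2 CPM, between the levels of monocyte-like and granulocyte-like cells.

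Cells of a class were then ordered by the summed level of gene lists that hold no member and were compared from the lowest to the highest quintile. The list of 14 NF-kappaB genes and early targets, such as Nfkbia, Tnfaip3 and Icam1, ran with Cxcl1 and Cxcl2 in macrophage-like, monocyte-like, granulocyte-like and cancer-like cells. In macrophage-like cells Cxcl2 went from 58.5 to 2203 CPM in sGC Ctr and from 149 to 2690.8 CPM in sGC ∆PC, and Cxcl1 from 10.8 to 162 and from 20.7 to 192 CPM. In monocyte-like cells Cxcl2 went from 165 to 9547.3 and from 181 to 9046 CPM, and in granulocyte-like cells from 7481.4 to 54686 and from 13959 to 39518 CPM. In cancer-like cells Cxcl1 went from 22.1 to 275 and from 31.1 to 335 CPM, and Cxcl5 from 0.784 to 11.7 and from 1.89 to 26.5 CPM. A list of early dissociation response genes, such as Fos and Egr1, ordered these members alike. Along it Cxcl2 in macrophage-like cells went from 43.8 to 2196 and from 104 to 2280.7 CPM, and Cxcl1 in cancer-like cells from 25.3 to 200 and from 47.3 to 199 CPM. Along the NF-kappaB list the median depths of the lowest and highest quintiles were 11631 and 10765.5 UMIs in macrophage-like cells of sGC Ctr, and 4897 and 8472.5 in those of sGC ∆PC.

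Tissue-resident-like macrophage genes, such as Mrc1 and Folr2, separated Pf4 from Cxcl2. From the lowest to the highest quintile of that list Pf4 went from 306 to 2618.9 CPM and from 182 to 2152 CPM, whereas Cxcl2 went down from 997 to 473 CPM and from 1072.2 to 834 CPM. The lowest quintile was shallow in sGC ∆PC, at a median of 1788 UMIs. Along a list of hypoxia genes Cxcl1 in cancer-like cells went from 89.6 to 163 and from 98.3 to 233 CPM, and Cxcr2 in granulocyte-like cells from 738 to 243 and from 518 to 241 CPM. In macrophage-like cells the highest quintile of cell cycle genes had the lower Cxcl2, 260 and 402 CPM against 991 and 1177.5 CPM in the lowest.

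**Figure D5:**
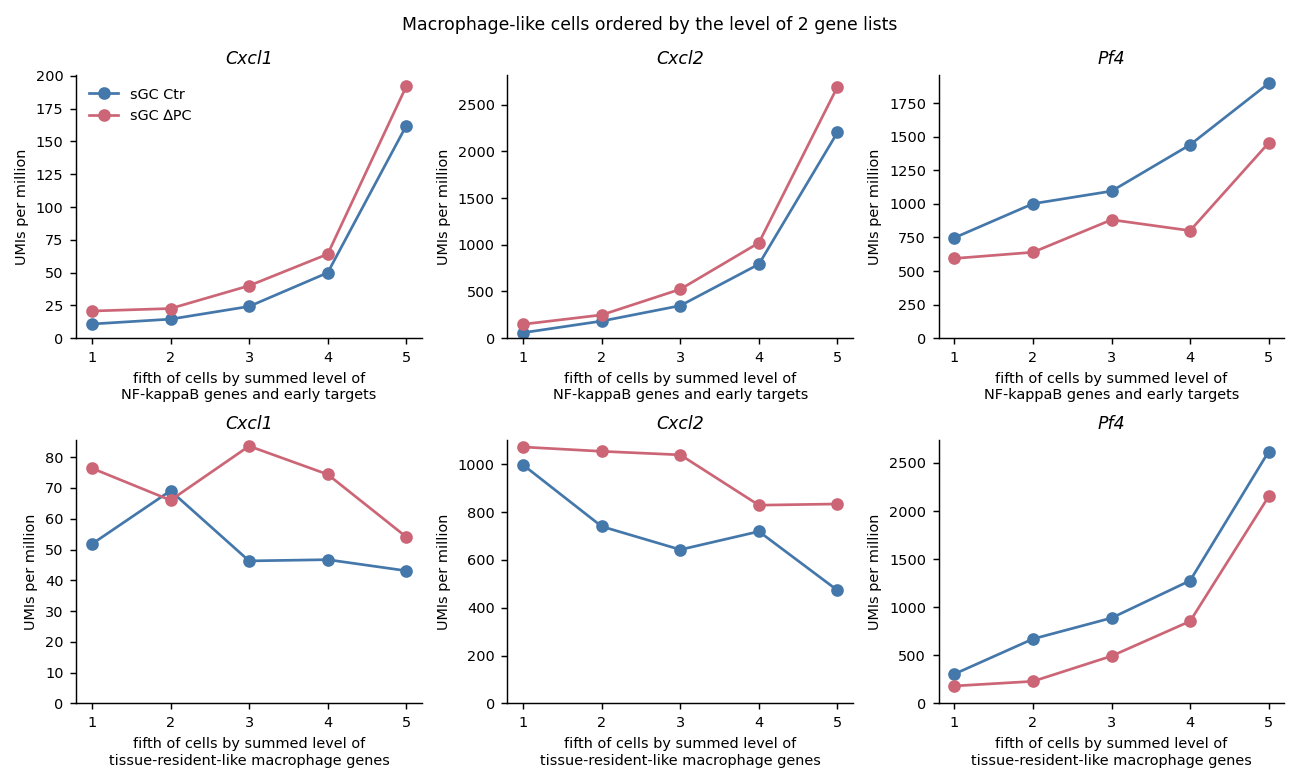
Cxcl1, Cxcl2 and Pf4 (CPM) in macrophage-like cells ordered into 5 equal groups by NF-kappaB genes and early targets (upper row) or tissue-resident-like genes (lower row), with sGC Ctr in blue and sGC ∆PC in red. Cxcl1 and Cxcl2 climb with the NF-kappaB list (Cxcl2 from 58.5 to 2203 and from 149 to 2690.8), and Pf4 climbs with the resident-like list (306 to 2618.9 and 182 to 2152).

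In granulocyte-like cells the receptors, inducers and signaling genes around this pathway had list medians below that of all genes. Of 7 neutrophil chemoattractant receptors none was past 2-fold and their median log2 ratio was -0.13, against 0.00 for all genes. Csf3r, the receptor of granulocyte colony-stimulating factor, was 815 and 744 CPM, and Cxcr1, which shares ligands with Cxcr2, was 59 and 51.5 CPM. Of 11 measured inducers and their receptors 1 was past 2-fold lower, Myd88, the adaptor of interleukin 1 and Toll-like receptors (-1.11, -1.87 to -0.38). Il1b was 11551 and 7321.4 CPM (-0.66, -0.71 to -0.60) and Tnf 169 and 91.8 CPM (-0.88, -1.39 to -0.37). Of 8 measured genes of signaling below Cxcr2 none was past 2-fold, with a median of -0.46. Of 2409 genes in the class 1.2% were past 2-fold higher and 1.37% lower. The summed granulocyte markers were lower too, at 84589 and 62767 CPM, and their part in these list medians was not tested. MHC class II genes went the other way, with 3 of 3 measured past 2-fold higher and a median of 1.23. This was not particular to granulocyte-like cells. The median of that list was 1.59 in cancer-like, 2.19 in EC-like and 0.74 in macrophage-like cells. It was 0.11 in fibroblast-like and -0.06 in monocyte-like cells.

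In macrophage-like cells the 12 measured inducers and receptors held none past 2-fold either, with a median of 0.15 against -0.05 for all genes. Il1b was 185 and 319 CPM there (0.79, 0.73 to 0.84) and Tnf 44.5 and 47.2 CPM (0.09, -0.03 to 0.21). The 13 measured NF-kappaB genes and early targets had a median of 0.11 and none past 2-fold. Tissue-resident-like genes had a median of -0.44, the same direction as Pf4, with 1 of 6, Cd163, the hemoglobin scavenger receptor, past 2-fold lower (-1.17, -1.40 to -0.95). In cancer-like cells 6 of 7 neutrophil chemoattractant receptors and 4 of 12 measured inducers and receptors were past 2-fold higher, among them Il1b at 12.1 and 27.1 CPM, while the 14 NF-kappaB genes had a median of 0.25 and 1 past 2-fold. In this class 4.54% of all genes were past 2-fold higher, and the macrophage markers (93.6 and 198 CPM) and granulocyte markers (28.1 and 63.1 CPM) moved the same way, whose part in these counts was not tested. Csf3, the growth factor of neutrophils, was 1.65 and 1.88 CPM in these cells (0.18, 0.03 to 0.34). In EC-like cells Ackr1, a venular receptor that carries chemokines across the vessel wall, was 52.3 and 6.31 CPM, from 79 and 7 UMIs (-3.05, -4.41 to -1.94). It is from a list of other receptors and decoys of CXC chemokines. Of 3 measured there, 1 was past 2-fold higher and 1 lower, with a median of 0.32. Of 6025 genes in the class 0.863% were past 2-fold higher and 0.664% lower. The class held 59 and 86 cells, at median depths of 23221 and 5743.5 UMIs.

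The genes whose levels followed each member most closely were named from 11308 genes over 15 profiles of class and library, as the Pearson correlation of log2 CPM. Profiles of 1 library share depth and free RNA, and the same classes recur in both. Cxcl2 was closest to Clec4e (0.984), Il1rn (0.974), Trem1 (0.971), Ccl3 (0.969) and Cd14 (0.964). Cxcl3 was closest to Fpr1 (0.962) and then Hexim1, Fam71f2, Mdm2 and Gm39556 (0.957 to 0.946). Cxcr2 was closest to Il1f9 (0.986), Ifit1bl2, Gm20406, Nlrp12 and Slc32a1 (0.976). These 3 members formed a granulocyte pattern, with 0.907 between Cxcl2 and Cxcl3, 0.819 between Cxcl2 and Cxcr2 and 0.853 between Cxcl3 and Cxcr2.

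Pf4 was closest to Hacd4 (0.931), Ctsb (0.926), Gas7, Pgd and Cebpa (0.901), and Ppbp to Gm10134 (0.913), Fam20c, Dppa3, P2ry10b and Ctsb (0.847). Pf4 and Ppbp had 0.844 between them. Cxcl5 was closest to Abi3bp (0.972), Ccn4, Hoxc6, F2rl1 and Rasl11a (0.955), and had -0.291 with Cxcl2. Cxcl1 was closest to Asph (0.941), Ldha (0.891), Tpi1, Ltbp1 and Ncs1 (0.839), and its correlation with Cxcl2 was 0.229, although both promoters hold the shared run.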

How the data were processed

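The authors deposited raw UMI counts per gene and barcode for each library, made with Cell Ranger 6.1.1 on mm10. Barcodes were kept if both totals (UMIs, genes) fell no further than 3 median absolute deviations from the log-scale median of their library and mitochondrial UMIs were at most 10%. Classes were set by summed UMIs of fixed markers per 10000 UMIs (gates of 5 for cancer, 20 for macrophage, 10 for monocyte, 75 for granulocyte, 100 for fibroblast and 10 for EC and T cell markers); gate heights were chosen after the marker distributions were seen. The members and lists were chosen with earlier results of these data known. Counts were summed per class, and 2000 UMIs per cell were drawn for shares. Because each condition is 1 library, values carry Poisson, Clopper-Pearson and exact conditional intervals and no p-value. The text names all 7 members, the 5 genes most correlated with each, and members of the fixed lists with at least 50 UMIs in the class described. The libraries shared 131 barcodes, of which 107 and 115 were kept. Scrublet marked 520 cells (4.26%) of sGC Ctr but 0 of sGC ∆PC, where it did not work, so no caller was used for the main values. The alternative that left out the marked cells changed the sGC Ctr library only. Alternatives were other gates, filters, doublet rules, Leiden clusters, thinning, per-cell means and median scaling. The scripts were tested on simulated data. Python 3.11.15, numpy 2.4.6, scipy 1.17.1, pandas 2.3.3 and scanpy 1.11.5 were used.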

Additional observations from a re-analysis of the deposited data

Results flagged for a closer look

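Over all cells of a class, Cxcl2 was lower in granulocyte-like cells of the sGC ∆PC library and higher in 5 of the classes compared. None of these differences was tested. Dendritic-like cells, which were not among those 5 classes, were also lower, at -0.44 (-0.86 to -0.03). That value leans on 1 cell of sGC Ctr, which held 111 of the 160 UMIs. The log2 ratio exceeded that in granulocyte-like cells by 2.25 in EC-like, 1.67 in fibroblast-like, 1.20 in cancer-like, 0.57 in macrophage-like and 0.29 in monocyte-like cells. Granulocyte markers in CPM differed in the same direction as Cxcl2 in each of these classes. They were higher in cancer-like (28.1 and 63.1), EC-like (14.6 and 43.3), fibroblast-like (41.3 and 71.8), macrophage-like (71 and 112) and monocyte-like cells (161 and 178). In granulocyte-like cells they were lower (84589 and 62767). The part of these markers was not tested. The contrast depended on the processing. Across the alternatives given below, the Cxcl2 log2 ratio in granulocyte-like cells ran from -0.13 to 0.43, the latter in cells with little of other classes' markers. Per granulocyte marker UMI, Cxcl2 in granulocyte-like cells was higher in sGC ∆PC. The ratio ran from 0.39 to 3.45 in EC-like, 0.46 to 2.42 in fibroblast-like and -0.01 to 0.42 in monocyte-like cells. It ran from 0.65 to 1.47 in cancer-like and 0.11 to 0.50 in macrophage-like cells.

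Pf4 was lower in macrophage-like cells of sGC ∆PC and higher in monocyte-like and cancer-like cells. In cancer-like cells with little of other classes' markers Pf4 was close to equal, at 5.16 and 5.87 CPM. Its log2 ratio exceeded that in macrophage-like cells by 1.60 in monocyte-like and 1.18 in cancer-like cells, and the difference was not tested. For Cxcr2 the log2 ratio in macrophage-like cells exceeded that in granulocyte-like cells by 1.50, from 19 and 32 UMIs in the former, and this difference was not tested.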

How the results depend on the processing

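The log2 ratio of each member in the class that best represents it was recomputed under 12 alternatives, 2 of which, the cells with little of other classes' markers (strict cells) and the removal of barcodes found in both libraries, were chosen after seeing the data. Of these values 55 stayed inside their counting interval, 26 moved outside it and 3 were counted as reversed. A reversal was counted only where the main interval excluded 0. The change of sign of Cxcl5 in fibroblast-like cells, to -0.31, is therefore not among the 3. The causes were not tested. With gates lowered by a factor of 0.5 the ratio was -0.05 for Cxcl2 and 0.96 for Cxcl3 in granulocyte-like cells, -0.31 for Cxcl5 in fibroblast-like cells and 0.50 for Ppbp in macrophage-like cells. With gates at 2 times their height it was 0.18 for Cxcl1 in cancer-like cells, -0.08 for Cxcl2, 0.29 for Cxcl5 and -0.42 for Pf4 in macrophage-like cells. With mixed cells put in their highest class it was 0.41 for Cxcl3 and 0.38 for Cxcl5. With Leiden clusters it was -0.04 for Cxcl2, 0.43 for Cxcl3, 0.42 for Cxcl5, -0.87 for Pf4 and, reversed, -0.40 for Ppbp. At 2000 UMIs it was 0.20 for Cxcl1, -0.09 for Cxcl2, 0.56 for Cxcl5, 2.18 for Ppbp and -0.38 for Pf4. As a mean over cells it was 0.18 for Cxcl1 and 0.40 for Cxcl5, and relative to the median gene -0.42 for Pf4. In strict cells it was 1.91 for Cxcl3, 2.22 for Cxcl5, -0.83 for Pf4, -0.13 for Cxcr2 in granulocyte-like cells and, reversed, 0.43 for Cxcl2 and -2.04 for Ppbp. By the same rule, in classes where a member was not highest, Cxcl2 in monocyte-like cells reversed to -0.01 at the higher gates. Cxcr2 in macrophage-like cells reversed to -0.28 at the lower gates and -0.21 with Leiden clusters. Changes of sign in ratios whose main interval included 0 were not counted there either. No Leiden cluster of sGC ∆PC was named for ECs, so that value could not be had. No paired analysis was possible because each condition is 1 library and the result comes from no test. Depth limits the rare genes most, since Ppbp, Cxcl5 and Cxcr2 rest on few UMIs in named classes other than their main ones and the cancer-like cells.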

Other observations

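Cells that passed no gate, 571 and 1259 in number, had higher levels of Cxcl2, Cxcl3, Pf4 and Ppbp than cancer-like cells, while Cxcl1 was 99.9 and 114 CPM. Cxcl2 was 1532.2 and 1483 CPM in them, Cxcl3 96.1 and 124 CPM, Pf4 349 and 300 CPM and Ppbp 33.3 and 34 CPM, which is the highest Ppbp level of any group of over 50 cells in either library.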
